A study of Drosophila simulans and Drosophila melanogaster and Drosophila sechellia with 48 samples.

Results

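Transcript levels in adult males of the host specialist Drosophila sechellia were compared with those of its generalist sister species Drosophila simulans. The arrays of both species were chosen by their titles, apart from a D. simulans array left out for its female transcripts. They were 3 arrays of D. sechellia and 29 arrays of D. simulans, 32 of the 48 arrays in the series. Each sample was RNA from 20 whole males aged 3 days, raised at 25 C in continuous light on cornmeal medium, hybridized to an Affymetrix array whose probes were designed on the genome of Drosophila melanogaster. D. sechellia was represented by a single line, Robertson. D. simulans was represented by 10 crosses between isogenic lines of a single wild population, joined in a ring from 6x11 to 105x6, with 3 arrays per cross, and replicate 3 of cross 37x43, which carried female transcripts, was left out. D. simulans was taken throughout as the equal mean of its 10 crosses, so that each heterozygous genotype counted equally. The levels of D. mauritiana (3 arrays, a single line) and of D. melanogaster (3 arrays, an even mixture of 10 lines) are given beside those of the named genes. Counts of genes by the position of D. mauritiana cover only genes picked by the difference between D. sechellia and D. simulans. They were not taken over all features. By the study's methods, the D. melanogaster and D. simulans arrays were collected earlier, and those of D. sechellia and D. mauritiana later, so that species, line and time of collection cannot be told apart in the difference between D. sechellia and D. simulans.

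D. sechellia breeds almost exclusively on the fruit of Morinda citrifolia in the Seychelles, whose octanoic and hexanoic acids kill or repel its relatives, whereas D. simulans feeds on many rotting fruits. Flies find a host through odorant binding proteins, which carry hydrophobic molecules in the fluid around sensory neurons, and through odorant, gustatory and ionotropic receptors in the neurons themselves. Toxic plant compounds are oxidized by cytochrome P450 enzymes, conjugated by glutathione transferases and UDP-glycosyltransferases and then excreted, while the midgut secretes proteases and glycosidases that digest the food. All flies here were reared on the same medium, without the host fruit.

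Sex-specific transcripts were examined before the genes. Over 14 yolk and eggshell genes, which males should hardly express, the median log2 signal was 12.3 in replicate 1 of D. sechellia, 6.84 in replicate 2 and 6.83 in replicate 3. The 29 D. simulans arrays had medians from 6 to 7.54. The summed signal of these genes was 188000 in replicate 1, against 2780 and 3200 in the other D. sechellia arrays and 1950 to 3880 in D. simulans. Replicate 1 of D. sechellia therefore carried female transcripts at a level that no other array compared here showed. It was kept in the main fit, and calls were also made without it. Over 10 genes of the testis, accessory gland and ejaculatory bulb the median log2 signals of the D. sechellia arrays were 10.73, 10.95 and 11.58, all below the D. simulans range of 12.28 to 13.88. Not every gene among them was low. Acp36DE had 8.78, 8.66 and 9.76 against a D. simulans median of 8.49, and betaTub85D and Acp26Aa lay within the D. simulans range. The D. sechellia arrays correlated with each other at r = 0.896 to 0.926 over the 12367 features tested below. Arrays of the same D. simulans cross correlated at r = 0.777 to 0.931. When each D. simulans cross was set against the other 9, 0 to 94 features passed the threshold, the most in cross 99x105.

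**Figure D1:**
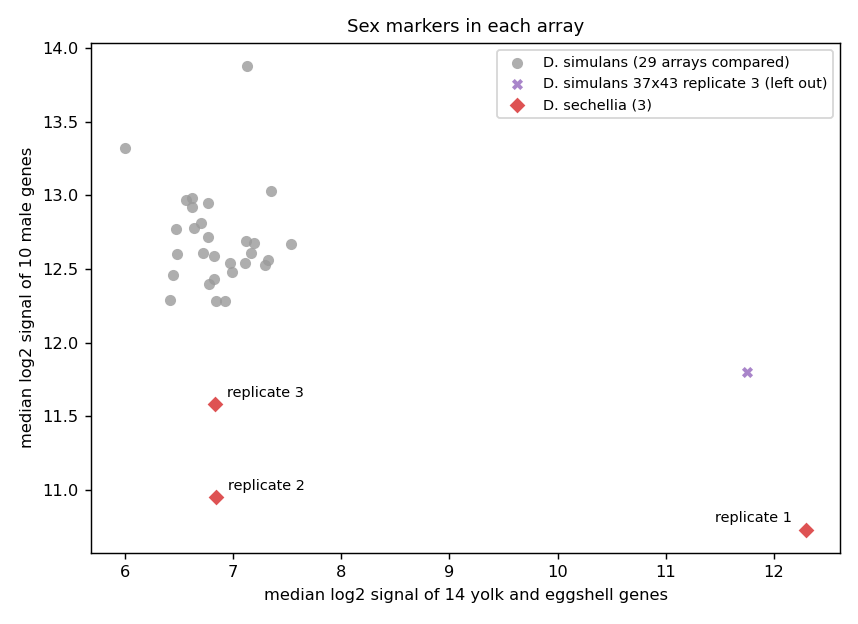
Median log2 signal of 14 yolk and eggshell genes (horizontal) and of 10 male reproductive genes (vertical), with a point per array. Replicate 1 of D. sechellia lies at 12.3 on the female axis, next to the array left out of D. simulans (11.75), and all 3 D. sechellia arrays lie below the D. simulans arrays on the male axis.

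Of 12367 features tested, each a gene by its brightest probe set or a probe set without a single gene name, 1509 (12.2%) differed between D. sechellia and D. simulans at an adjusted p under 0.05 by limma. Of these, 731 (5.91%) were higher and 778 (6.29%) lower in D. sechellia. The D. sechellia mean lay outside the means of all 10 crosses for 1489 of the 1509. A call against the mean of these crosses favours such a position, and the count was not taken over all features. It is therefore no separate support for the calls. The median difference over all features was 0.045 on the log2 scale. In 820 features (6.63%), whether called or not, the 3 D. sechellia arrays did not overlap the 29 D. simulans arrays. Leaving out replicate 1 of D. sechellia lowered the count of calls to 635, 275 higher and 360 lower, and leaving out replicate 2 lowered it to 792. A stricter call was therefore used for naming genes: the gene passed with all arrays and again without replicate 1 in the same direction, and all 3 D. sechellia arrays lay outside the range of the 29 D. simulans arrays. It was met by 414 features (3.35%), 195 higher (1.58%) and 219 lower (1.77%). List counts given below without replicate 1 or 2 of D. sechellia stand beside these totals of 635 and 792 calls in 12367 features.

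**Figure D2:**
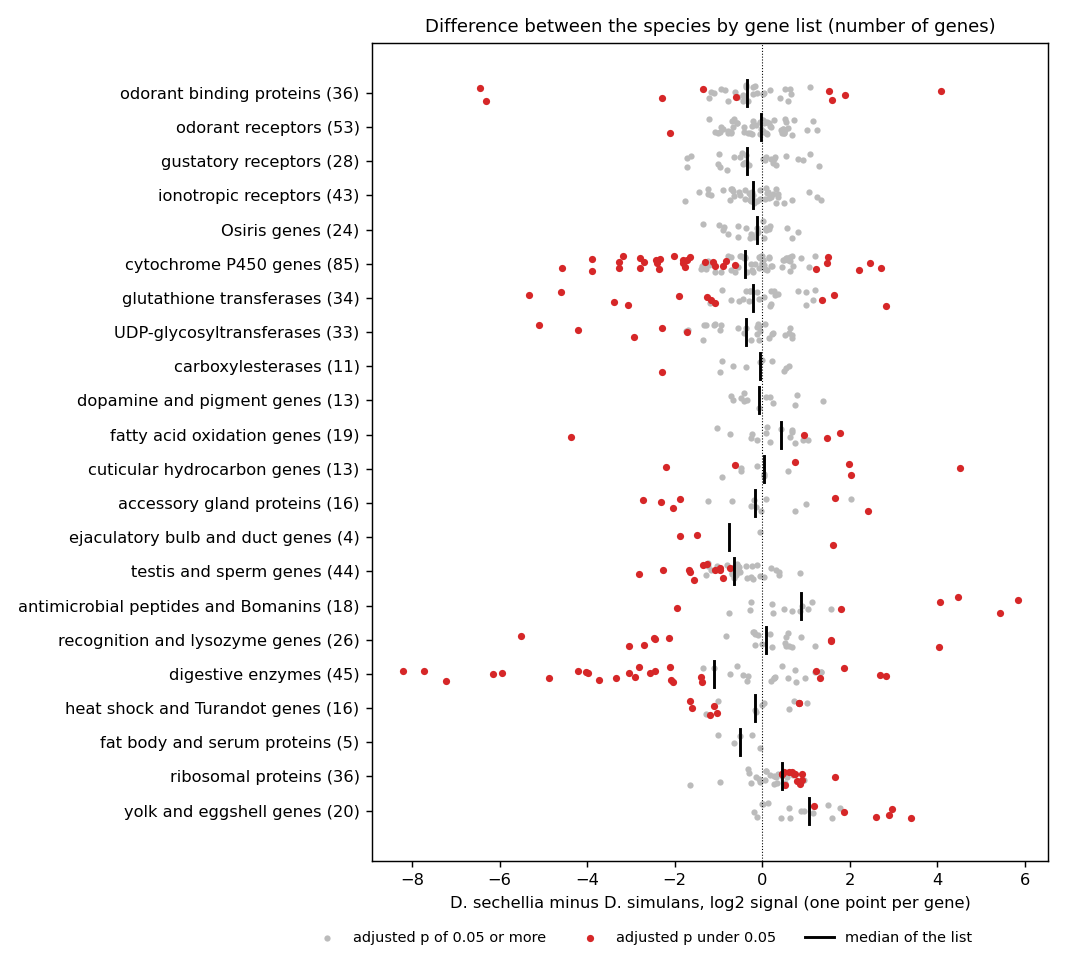
Log2 difference of D. sechellia from D. simulans for each gene of 22 lists, with a point per gene, red where the adjusted p was under 0.05, and a bar at the median of each list. The digestive enzymes reach furthest to the left, at -8.21, while the receptor and Osiris lists hold nearly only grey points.

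Digestive enzymes of the midgut held the lowest values of the comparison. Of 45 measured, 21 were lower and 5 higher in D. sechellia, 57.8% called against a background of 12.2%, and their median difference was -1.11, or -1.35 with median centring in place of quantile normalization. Of the 14 Jonah proteases, a family of secreted serine proteases, 11 were lower and 1 higher. Of 9 trypsins, 4 were lower and 3 higher. Without replicate 1 of D. sechellia, 18 of the 45 were lower and 3 higher, with a median of -0.74. In RNA of whole flies, fewer cells of a type and less RNA per cell cannot be told apart. Mismatches between D. sechellia transcripts and the probes, designed on D. melanogaster, were not tested either. The study expects diverged probes to bias a measure, so the differences here and below are differences in signal.

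betaTry, a trypsin of the midgut, had log2 signals of 5.97, 6.18 and 6.5 in the 3 D. sechellia arrays. In the 29 D. simulans arrays its lowest signal was 11.22, its median 14.71 and its highest 15.08. No D. sechellia array came near the lowest D. simulans array, and the difference was -8.21 (SE 0.64, 296-fold in signal, limma adjusted p = 5.24e-12). The same gene stood at 14.87 ± 0.25 (SD, n = 3) in D. mauritiana and 15.13 ± 0.24 (SD, n = 3) in D. melanogaster, so that D. sechellia alone among these 4 species had a low signal.

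The Jonah protease Jon65Aiv had signals of 7.32, 6.86 and 7.45 in D. sechellia, against 13.34, 15.05 and 15.48 as the lowest, median and highest D. simulans arrays. Its difference was -7.74 (SE 0.41, limma adjusted p = 1.59e-16). Jon99Fii had 7.08, 6.41 and 7.67 in D. sechellia and from 12.79 to 15.16 around a median of 14.43 in D. simulans, a difference of -7.23 (SE 0.32, adjusted p = 6.5e-19 by limma). For both proteases the groups were far apart, and D. mauritiana (14.98 ± 0.11 and 14.83 ± 0.21, SD, n = 3) lay within the D. simulans arrays. Jon25Bi had 4.96, 6.73 and 6.4 in D. sechellia and 9.8, 12.04 and 14.17 as the lowest, median and highest D. simulans arrays, and differed by -6.16 (SE 0.62, limma adjusted p = 3.64e-09). Its neighbour in name, Jon25Biii, had 5.93, 4.93 and 6.09 against 10.13, 11.54 and 12.64, a difference of -5.94 (SE 0.37, adjusted p = 8.83e-15 by limma). The third member of that cluster, Jon25Bii, was closer to D. simulans: its D. sechellia signals of 12.29, 9.12 and 11.93 overlapped the D. simulans range of 10.24 to 14.61, although its difference of -2.09 (SE 0.59) passed at an adjusted p of 0.0148 (limma). Because trypsins and Jonah proteases include close copies, a probe set may read more than its named gene.

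**Figure D3:**
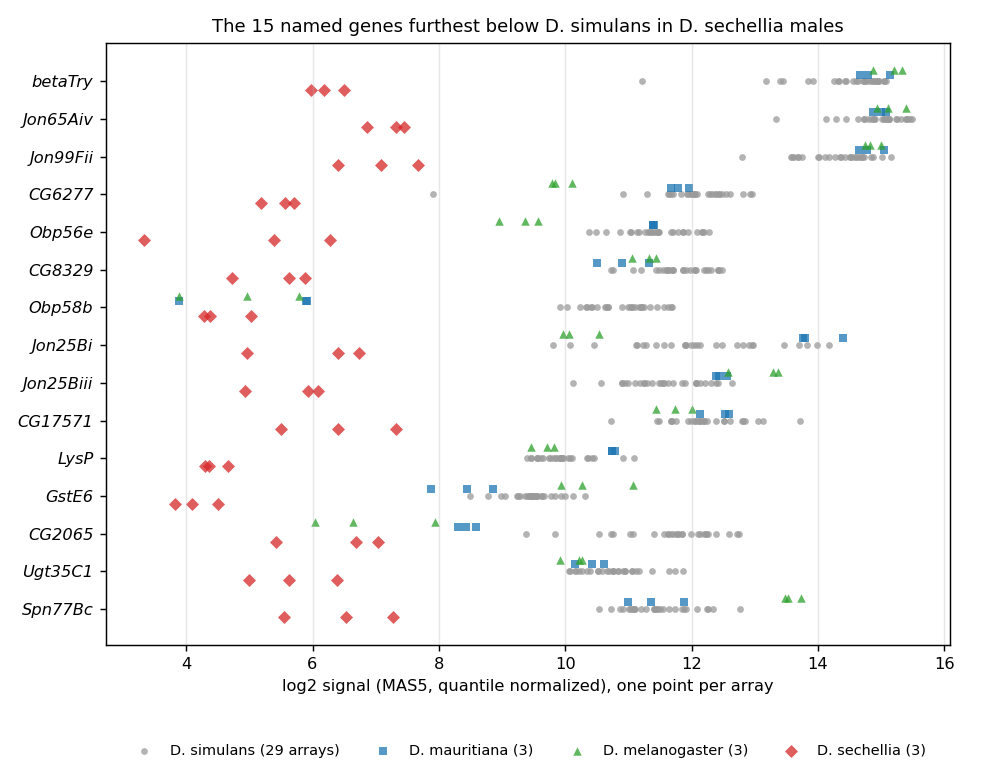
Log2 signal of the 15 named genes with the lowest difference among the stricter calls, with a point per array in D. sechellia, D. simulans, D. mauritiana and D. melanogaster. The D. sechellia points lie left of all D. simulans points in each of the 15 genes, while the D. mauritiana mean lies within the D. simulans arrays in 12 of them.

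Further along the list, epsilonTry (-4.88, SE 0.43), Jon44E (-4.22, SE 0.46), alphaTry (-4.03, SE 0.67) and Jon74E (-3.74, SE 0.55) were lower in D. sechellia without overlap. alphaTry had 11.59, 11.02 and 11.52 in D. sechellia, below the lowest (12.19) and the median (15.59) of the D. simulans arrays. Of the enzymes that split sugars, 3 of 10 maltases, 2 of 6 mannosidases and 1 of 2 amylases were lower and none was higher. Over all features 6.29% were lower and 5.91% higher, and at that share the lack of higher calls in so few genes is unremarkable. The mannosidase gene LManVI differed by -3.97 (SE 0.53) and the maltase gene Mal-B1 by -3.05 (SE 0.56), both without overlap, and the amylase gene Amy-d by -2.45 (SE 0.76), which overlapped and did not pass without replicate 1 (adjusted p = 0.142 by limma). Of the 21 lower genes, the D. mauritiana mean lay within the D. simulans arrays for 19 and above them for 2, a count not taken over all features.

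The 5 digestive genes that were higher in D. sechellia were lambdaTry, zetaTry, Ser8, Jon65Aiii and etaTry, all serine proteases. lambdaTry had signals of 12.75, 13.21 and 12.6 in D. sechellia, against 9.42, 9.93 and 11.08 as the lowest, median and highest D. simulans arrays, a difference of 2.84 (SE 0.34, limma adjusted p = 2.15e-07). zetaTry had 10.29, 10.8 and 10.22, above all D. simulans arrays (5.7 to 9.02), and differed by 2.69 (SE 0.49, adjusted p = 0.000173 by limma). Members of a single enzyme family thus lay on either side of D. simulans. Jon65Aiii (1.32, SE 0.35) and etaTry (1.23, SE 0.36) did not overlap D. simulans either but missed the threshold without replicate 1 (limma adjusted p = 0.103 and 0.114).

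**Figure D4:**
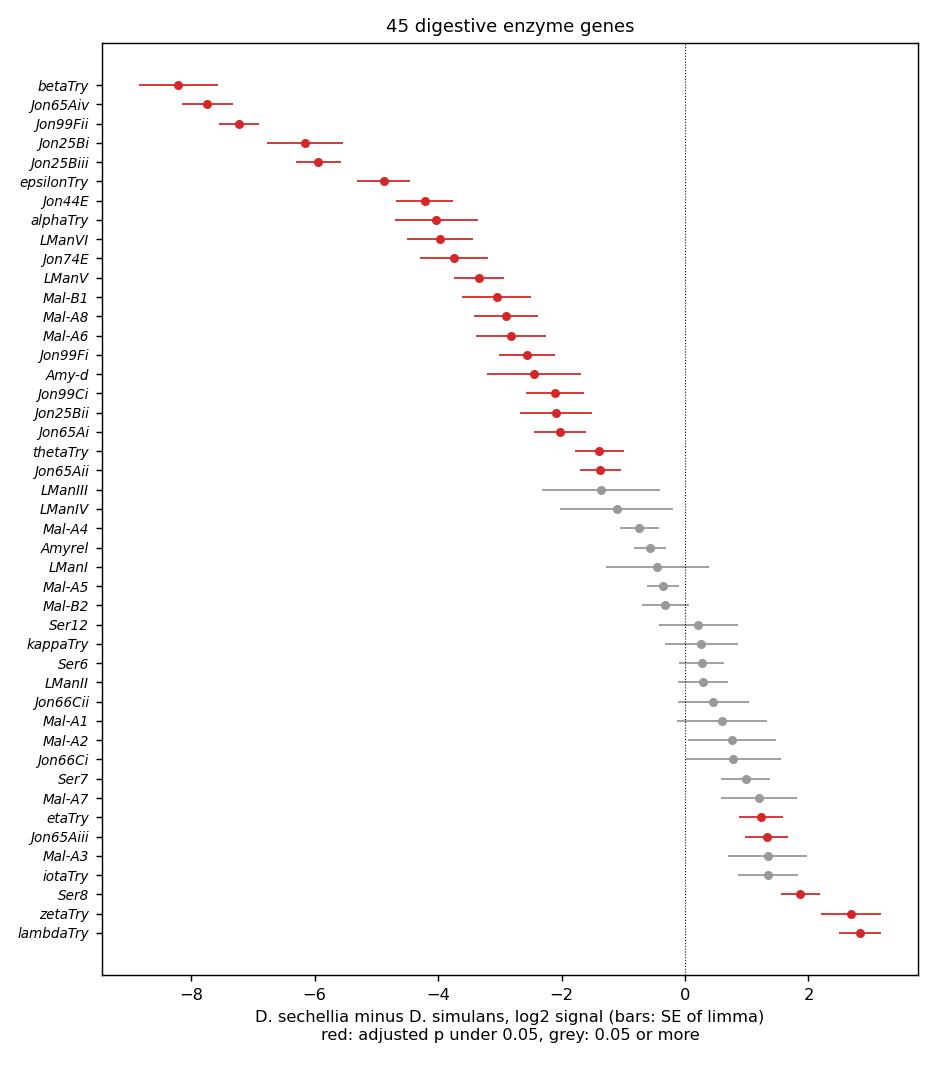
Log2 difference of D. sechellia from D. simulans for the 45 digestive enzyme genes, with the standard error of the fit as a bar and calls in red. The values run from -8.21 for betaTry to 2.84 for lambdaTry.

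Lysozymes, which in flies serve largely to digest bacteria in the gut, were low in D. sechellia: 5 of 7 measured were lower and 0 higher. Over all features 6.29% were lower and 5.91% higher. LysP, of the salivary gland, had 4.36, 4.3 and 4.67 in D. sechellia and 9.4, 9.92 and 11.09 as the lowest, median and highest D. simulans arrays, so that the groups were widely separated (difference -5.51, SE 0.3, limma adjusted p = 2.87e-16). LysD (-3.04, SE 0.49) and LysB (-2.48, SE 0.32) also lay below all D. simulans arrays, whereas LysC (-2.44, SE 0.53) and LysE (-2.14, SE 0.4) overlapped them. In D. mauritiana LysD (15.85 ± 0.07) and LysB (15.93 ± 0.09, SD, n = 3) were above the highest D. simulans arrays of 15.72 and 15.77. LysB, LysC, LysD and LysE are close copies, and their probe sets may share signal.

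Among odorant binding proteins, 4 of 36 measured were higher and 5 lower in D. sechellia (25% called, against 12.2% of all features), with a median difference of -0.34, or -0.16 without replicate 1. Obp56e had log2 signals of 5.39, 3.34 and 6.28 in D. sechellia and 10.37, 11.44 and 12.28 as the lowest, median and highest D. simulans arrays. The groups did not come near each other, and the difference was -6.45 (SE 0.35, 87.3-fold, limma adjusted p = 3.23e-16). D. mauritiana had 11.39 ± 0.01 and D. melanogaster 9.29 ± 0.32 (SD, n = 3), the latter between D. sechellia and D. simulans.

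Obp58b showed another arrangement of the species. Its signals were 4.37, 4.29 and 5.02 in D. sechellia, against 9.91, 11.02 and 11.69 as the lowest, median and highest in D. simulans, a difference of -6.32 (SE 0.43, limma adjusted p = 1.21e-13). D. mauritiana (5.24 ± 1.16) and D. melanogaster (4.88 ± 0.95, SD, n = 3) were also low, so that D. simulans alone among these 4 species had a high signal. Obp18a had 6.93, 7.58 and 8.19 in D. sechellia, below all D. simulans arrays (9.25 to 11.41), and differed by -2.28 (SE 0.23, adjusted p = 5.34e-09 by limma). Obp56g differed by -1.35 (SE 0.3) without overlap.

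Obp19a was the odorant binding protein most raised in D. sechellia, with 9.89, 10.14 and 10.49. The D. simulans arrays had 4.68, 5.93 and 7.64 as the lowest, median and highest, and none reached the D. sechellia level (difference 4.09, SE 0.56, 17-fold, limma adjusted p = 1.85e-06). D. mauritiana had 7.05 ± 1.02 and D. melanogaster 5.46 ± 1.32 (SD, n = 3). Its neighbour in name Obp19d was higher by 1.59 (SE 0.25), and its arrays of 13.29, 13.48 and 12.74 lay just above the highest D. simulans array of 12.72. Obp99b (1.9, SE 0.35) and Obp56d (1.53, SE 0.3) were higher with overlap.

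Sensory receptors gave nearly no calls, against 12.2% of all features. Of 53 odorant receptors 1 was lower, Or45b (-2.1, SE 0.6), and it did not pass without replicate 1 of D. sechellia (limma adjusted p = 0.164). None of 28 gustatory and 43 ionotropic receptors passed by limma, although 4 gustatory and 4 ionotropic receptors had an unadjusted p under 0.05, and under median centring 1 of each list was lower. These genes are expressed in few cells: both species means lay under a log2 signal of 6 for 29 of the odorant, 12 of the gustatory and 26 of the ionotropic receptors. The brightest odorant receptor, Or22c, had 8.51, 8.27 and 8.7 in D. sechellia within the D. simulans range of 8.13 to 10.07 (difference -0.68, SE 0.36, limma adjusted p = 0.236). Or46a differed by -0.03 (SE 0.32), Gr8a by 0.27 (SE 0.56), Gr98d by 0.01 (SE 0.47), Ir68b by -0.74 (SE 0.37) and Ir92a by -0.53 (SE 0.42), all with overlap. The standard errors of the receptors that did not pass reached 0.89 for odorant and 0.91 for ionotropic receptors, so that differences of a few fold were not detectable in many of them.

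Cytochrome P450 genes were lower more often than higher. Of 85 measured, 25 were lower and 6 higher in D. sechellia (36.5% called, against 12.2% of all features), with a median difference of -0.39. Without replicate 1 of D. sechellia 19 were lower and 4 higher, and the median was -0.14. In the Cyp6 family, which includes enzymes that act on insecticides and plant toxins, 11 of 23 were lower and 2 higher. In the Cyp4 family 8 of 22 were lower and 1 higher.

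Cyp6a2, which metabolizes insecticides, had signals of 5.88, 5.51 and 5.91 in D. sechellia, against 8.86, 10.5 and 11.57 as the lowest, median and highest D. simulans arrays. The D. sechellia arrays were tightly grouped and well below D. simulans (difference -4.58, SE 0.33, 23.9-fold, limma adjusted p = 6.66e-13). D. mauritiana had an intermediate 8.2 ± 0.4 and D. melanogaster 11.1 ± 0.29 (SD, n = 3). Cyp6g1, known in D. melanogaster for resistance to DDT when overexpressed, had 9.19, 9.57 and 8.96 in D. sechellia and 11.57, 12.65 and 13.48 as the lowest, median and highest in D. simulans, a difference of -3.28 (SE 0.47, adjusted p = 4.77e-06 by limma). D. mauritiana was also low at 9.78 ± 0.45, and D. melanogaster high at 14.67 ± 0.07 (SD, n = 3).

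Cyp4e3 had 6.98, 7.18 and 7.06 in D. sechellia, below all D. simulans arrays (9.68 to 12.27), and differed by -3.89 (SE 0.47, limma adjusted p = 1.93e-07), with D. mauritiana at 7.18 ± 0.21 (SD, n = 3). Cyp6a23 had 3.82, 3.85 and 2.95 against 5.27 to 8.83 and differed by the same -3.89 (SE 0.67), but here D. mauritiana had 7.31 ± 0.67 (SD, n = 3), as high as D. simulans. Other P450 genes below all D. simulans arrays were Cyp310a1 (-3.27, SE 0.55), Cyp6a20 (-3.18, SE 0.35), Cyp6w1 (-2.8, SE 0.34), Cyp28d1 (-2.8, SE 0.35), Cyp6d5 (-2.43, SE 0.33) and Cyp4d2 (-1.81, SE 0.22). For 14 of the 25 lower P450 genes the D. mauritiana mean too lay below all D. simulans arrays, and for 11 within them.

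The higher P450 genes were Cyp4s3 (2.71, SE 0.49), Cyp12e1 (2.47, SE 0.58), Cyp9f2 (2.21, SE 0.31), Cyp6a18 (1.51, SE 0.35), Cyp305a1 (1.48, SE 0.46) and Cyp6a22 (1.23, SE 0.4). Cyp9f2 had 14.26, 14.54 and 13.75 in D. sechellia, above the highest D. simulans array of 12.67. D. mauritiana (11.02) and D. melanogaster (11.96) had Cyp9f2 means within the D. simulans range. Cyp305a1 and Cyp6a22 did not pass without replicate 1 (limma adjusted p = 0.138 and 0.216).

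Of 34 glutathione transferases, 8 were lower and 3 higher (32.4% called, against 12.2% of all features), with a median difference of -0.2. Without replicate 1 of D. sechellia 6 were lower and 2 higher, and the median was -0.02. All 8 lower genes were of the insect-specific Delta and Epsilon classes, 3 of 11 Delta and 5 of 14 Epsilon genes. Most genes of both classes did not pass. Of the 3 Omega genes 2 were higher. GstE6 had 4.1, 4.5 and 3.83 in D. sechellia and 8.49, 9.49 and 10.32 as the lowest, median and highest D. simulans arrays, without any approach of the groups (difference -5.34, SE 0.33, limma adjusted p = 8.54e-15). GstE1 (-3.38, SE 0.35) and GstD2 (-3.07, SE 0.3) were also below all D. simulans arrays. GstD5 differed by -4.59 (SE 0.62), with a D. simulans range from 4.96 to 11.21 that the D. sechellia arrays (5.83, 4.46 and 4.38) overlapped.

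GstO2 had 11.51, 11.78 and 11.12 in D. sechellia, above all D. simulans arrays (6.49 to 9.74), a difference of 2.82 (SE 0.33, limma adjusted p = 1.33e-07). The other probe sets of GstO2 did not show this: they differed by 0.95 and -1.65 (limma adjusted p = 0.0858 and 0.32), so that the gene's direction rests on its brightest probe set. GstO3 was higher by 1.36 (SE 0.23) without overlap.

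Of 33 UDP-glycosyltransferases, which add sugars to lipophilic compounds, 5 were lower and 0 higher, and 15.2% called is near the 12.2% of all features. Ugt35C1 had 5.63, 5 and 6.38 in D. sechellia and 10.06, 10.76 and 11.86 as the lowest, median and highest in D. simulans, again with wide separation (difference -5.1, SE 0.25, limma adjusted p = 2.34e-17). D. mauritiana had 10.4 ± 0.23 (SD, n = 3). Ugt302C1 (-2.92, SE 0.41) and Ugt35B1 (-1.73, SE 0.33) were below all D. simulans arrays, but a second, dimmer probe set of Ugt35B1 differed by only -0.28 (limma adjusted p = 0.666). Among 11 carboxylesterases 1 was lower, Est-P (-2.3, SE 0.72), which did not pass without replicate 1 of D. sechellia (limma adjusted p = 0.351). The brightest esterases alpha-Est3 and alpha-Est10 differed by -0.01 (SE 0.26) and -0.96 (SE 0.39) and did not pass.

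Several antimicrobial peptides, which the fat body secretes on infection through the Toll and Imd pathways, were far higher in D. sechellia. Of 18 peptide and Bomanin genes 5 were higher and 1 lower (33.3% called, against 12.2% of all features). Their median difference was 0.89, or 0.54 without replicate 2 of D. sechellia. The metchnikowin gene Mtk, active against fungi, had 11.49, 15.02 and 11.64 in D. sechellia and 3.75, 6.28 and 11.4 as the lowest, median and highest D. simulans arrays. Its lowest D. sechellia array was thus only just above the highest D. simulans array, in a gene that varied widely within D. simulans, with cross means from 4.75 to 9.47 (difference 5.84, SE 1.02, limma adjusted p = 9.74e-05).

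The drosomycin gene Drs, antifungal as well, was more even: 13.57, 13.99 and 13.38 in D. sechellia, against 6.32, 8.13 and 10.78 in D. simulans (lowest, median and highest), a difference of 5.44 (SE 0.43, 43.4-fold, limma adjusted p = 7.33e-12). D. mauritiana had 11.95 ± 0.09 (SD, n = 3), above the D. simulans arrays too, and D. melanogaster 9.82 ± 0.38. DptB, a diptericin active against Gram-negative bacteria, had 9.89, 14.21 and 10.34, all above the highest D. simulans array of 9.02 (difference 4.07, SE 0.63, adjusted p = 1.68e-05 by limma). The defensin gene Def had 9.4, 12.18 and 5.51 in D. sechellia, and the last of these lay within the D. simulans range of 3.47 to 5.88 (difference 4.47, SE 0.69). For Mtk, DptB and Def replicate 2 of D. sechellia stood highest, by more than 2-fold over either of the others.

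PGRP-SB1, a secreted peptidoglycan recognition protein induced on infection, had 11.21, 12.69 and 10.34 in D. sechellia, against 5.4, 7.63 and 9.54 as the lowest, median and highest in D. simulans, without overlap (difference 4.05, SE 0.64, limma adjusted p = 2.03e-05). The complement-like gene Tep4 was higher by 1.58 (SE 0.2) without overlap, and the Bomanin BomT3 by 1.8 (SE 0.26) with overlap. BomS5, a short Bomanin of the Toll response, went the other way, with 9.09, 9.86 and 9.07 below all D. simulans arrays (9.9 to 15.14, difference -1.95, SE 0.36, limma adjusted p = 0.00018). The fat body genes apolpp and regucalcin differed by -0.04 (SE 0.24) and -0.24 (SE 0.23). Of 5 fat body and serum protein genes 0 passed by limma (12.2% of all features did), 0 also at an unadjusted p under 0.05. At that share so few genes would often give no call. Their differences ran from -1 to -0.04, with a median of -0.5.

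The fatty acid desaturase gene Desat2, which sets a double bond in cuticular hydrocarbons of females in some D. melanogaster populations, was among the most evenly raised genes. Its signals were 13.08, 13.07 and 13.27 in D. sechellia, against 7.9, 8.61 and 9.82 as the lowest, median and highest in D. simulans. The D. sechellia arrays lay together and far above D. simulans (difference 4.53, SE 0.26, 23.2-fold, limma adjusted p = 8.03e-16). D. mauritiana (8.59 ± 0.17) and D. melanogaster (8.11 ± 0.66, SD, n = 3) were at the D. simulans level. CG9458, which encodes a protein of the fatty acid elongase family, had 11.75, 12.25 and 11.6 against a D. simulans range of 9.21 to 10.47 and differed by 1.98 (SE 0.27, adjusted p = 2.28e-06 by limma). Fad2, a desaturase expressed in females, had 10.38, 8.63 and 9.59, highest in the replicate with female transcripts, and did not pass without it (limma adjusted p = 0.272). In all, 4 of 13 hydrocarbon genes were higher and 2 lower (46.2% called, against 12.2% of all features). These counts were 2 and 0 without replicate 1 and 3 and 0 without replicate 2.

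Among 19 genes of fatty acid oxidation 3 were higher and 1 lower (21.1% called, against 12.2% of all features), with a median difference of 0.43. Acbp5, an acyl-CoA binding protein, had 8.05, 7.51 and 7.7 in D. sechellia, below all D. simulans arrays (11.22, 12.12 and 13.81 as the lowest, median and highest), a difference of -4.37 (SE 0.28, limma adjusted p = 3.34e-14). Arc42, an acyl-CoA dehydrogenase, had 12.29, 12.12 and 11.66, above all D. simulans arrays (9.63 to 11.24), and differed by 1.77 (SE 0.19, adjusted p = 2.92e-08 by limma). wal, the alpha subunit of the electron transfer flavoprotein that takes up electrons from such dehydrogenases, was higher by 1.47 (SE 0.19) without overlap. The thiolase gene yip2 was higher by 0.96 (SE 0.27) and did not pass without replicate 1 (limma adjusted p = 0.125).

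The 10 male marker genes given above are themselves members of the reproductive lists. Their lower median in D. sechellia and the counts here are therefore not separate measurements. Of 44 testis and sperm genes 12 were lower and 0 higher (27.3% called, against 12.2% of all features), with a median difference of -0.64. Without replicate 1 of D. sechellia the count was 4 and the median -0.39, and without replicate 2 it was 7. All 5 measured genes of the Mst84D cluster and Mst87F, which encode small cysteine-rich proteins of the sperm tail, were lower. Mst84Db had 11.89, 11.98 and 11.9 in D. sechellia, against 12.67, 14.72 and 15.55 as the lowest, median and highest in D. simulans, a difference of -2.81 (SE 0.33, limma adjusted p = 1.61e-07). Mst84Dc (-1.67, SE 0.31), Mst87F (-1.56, SE 0.28) and Mst84Da (-1.26, SE 0.23) were below all D. simulans arrays as well. D. mauritiana had Mst84Db at 11.37 ± 0.45 and D. melanogaster at 15.22 ± 0.23 (SD, n = 3). For 9 of the 12 lower genes the D. mauritiana mean lay below all D. simulans arrays, a count likewise not taken over all features.

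Seminal fluid genes changed in both directions. Of 16 accessory gland protein genes 4 were lower and 2 higher (37.5% called, against 12.2% of all features). Without replicate 1 of D. sechellia, or without replicate 2, 2 were lower and 2 higher. The sex peptide gene SP, whose product changes the behaviour of mated females, had 10.95, 11.21 and 11.99 in D. sechellia, below all D. simulans arrays (13.08, 14.2 and 15.25 as the lowest, median and highest), a difference of -2.72 (SE 0.32, limma adjusted p = 1.11e-07). Mst57Da had 13.54, 14 and 13.95 against 15.82 to 16.42 and differed by -2.31 (SE 0.31), with D. mauritiana also low at 13.21 ± 0.18 (SD, n = 3). Acp26Ab had 10.66, 11.23 and 11.27, above all D. simulans arrays (6.8 to 10.31), and was higher by 2.41 (SE 0.49, adjusted p = 0.000633 by limma). Of 4 ejaculatory bulb and duct genes 1 was higher and 2 lower (75% called, against 12.2% of all features). EbpIII was higher by 1.62 (SE 0.24) and EbpII differed by -1.48 (SE 0.29), both without overlap. Gld, glucose dehydrogenase, had 9.55, 9.9 and 9.3 in D. sechellia, overlapping the D. simulans range of 9.68 to 12.16, and differed by -1.88 (SE 0.29, limma adjusted p = 1.76e-05).

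Of 20 yolk and eggshell genes 6 were higher with all arrays (over all features 5.91%), 0 without replicate 1 and 10 without replicate 2. Yp1, a yolk protein gene, had 15.98 in replicate 1 against 8.61 and 5.71 in the others. Yp2 (15.72, 8.41 and 7.84), Yp3 (12.68, 8.06 and 7.59), Cp15 (13.47, 6.81 and 6.47), Cp18 (12.98, 9.25 and 10) and Vm34Ca (14.73, 8.15 and 8.67) had the same pattern. Not all members of the list had it: Cp36 was even (8.59, 8.43 and 8.55) and Cp38 was highest in replicate 3 (7.66, 6.19 and 8.18). Vm34Ca differed by 1.88 (SE 0.6) with all arrays and by -0.23 without replicate 1 (limma adjusted p = 0.815). The ribosomal gene RpS5b, of the germ line, had 14.39, 10.22 and 10.49, and its difference of 1.67 with all arrays was 0.33 without replicate 1 (adjusted p = 0.69 by limma).

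**Figure D5:**
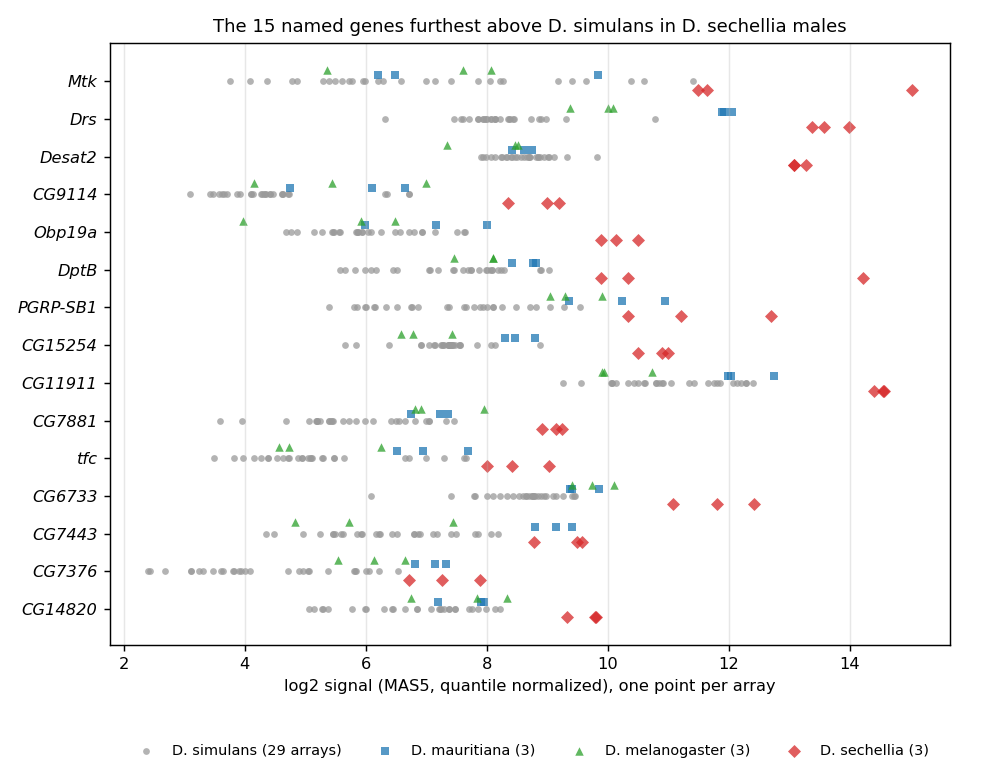
Log2 signal of the 15 named genes with the highest difference among the stricter calls, with a point per array in D. sechellia, D. simulans, D. mauritiana and D. melanogaster. The D. sechellia points lie right of all D. simulans points, closely grouped for Desat2 and Drs and spread for Mtk and DptB, and the D. mauritiana mean lies within the D. simulans arrays in 10 of the 15.

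Other genes at the upper end were not on the lists. CG9114 had 9.2, 9 and 8.35 in D. sechellia and 3.09, 4.32 and 6.72 as the lowest, median and highest in D. simulans (difference 4.41, SE 0.74, limma adjusted p = 5.77e-05). CG11911, which encodes a serine protease, had 14.4, 14.56 and 14.54, each above the highest D. simulans array of 12.39, and differed by 3.42 (SE 0.59, adjusted p = 8.45e-05 by limma). CG15254, of the astacin family of metalloproteases, was higher by 3.53 (SE 0.37), CG7881 by 3.32 (SE 0.57), tfc by 3.23 (SE 0.63), CG6733 by 3.21 (SE 0.27), CG7443 by 2.96 (SE 0.52), CG7376 by 2.86 (SE 0.59) and CG14820, a predicted carboxypeptidase, by 2.85 (SE 0.45). As the stricter call requires, the D. sechellia arrays lay above all D. simulans arrays, in CG7376 only narrowly (6.72 in replicate 3 against 6.53). D. mauritiana was near D. sechellia for CG7443 (9.12 ± 0.31 against 9.28 ± 0.44, SD, n = 3 each) and CG7376 (7.09 ± 0.26 against 7.29 ± 0.58, SD, n = 3 each).

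At the lower end outside the lists stood CG6277, a predicted lipase, with 5.57, 5.19 and 5.71 in D. sechellia and 7.91, 12.05 and 12.96 as the lowest, median and highest in D. simulans (difference -6.48, SE 0.64, limma adjusted p = 3.19e-09). The predicted serine proteases CG8329 (-6.39, SE 0.25) and CG17571 (-5.8, SE 0.46) were low in all 3 D. sechellia arrays and high in D. mauritiana (10.91 ± 0.41 and 12.42 ± 0.24, SD, n = 3). CG2065, a short-chain dehydrogenase, differed by -5.25 (SE 0.39), and D. mauritiana (8.44 ± 0.15) and D. melanogaster (6.87 ± 0.97, SD, n = 3) also lay below all D. simulans arrays (9.38 to 12.75). Spn77Bc, a serpin, differed by -5.05 (SE 0.43), with D. mauritiana at 11.41 ± 0.45 (SD, n = 3) and within the D. simulans range.

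Genes that earlier work on the D. sechellia host shift has named were examined as a further list. Of 30 such genes 25 were measured, which did not include Obp57d, Obp57e, Obp50a, Est-6 and Jheh1. Of the 25, 1 was higher and 6 lower, beside 5.91% higher and 6.29% lower over all features. These were Obp19a, Obp56e, Obp18a, Cyp6a2, Cyp6g1 and Cyp4d2, described above, and Cyp309a1, whose signals of 7.91, 7.88 and 6.74 overlapped the D. simulans range of 7.47 to 10.46 (difference -1.73, SE 0.41, limma adjusted p = 0.00358). The other 18 did not pass, with differences from -1.35 to 1.26 and standard errors from 0.3 to 0.7. The receptor genes Or22a (7.27, 5.69 and 7.29 against 3.72 to 8.41), Or85b (5.47, 4.97 and 6.82 against 2.66 to 6.62) and Ir75b (7.37, 8.03 and 8.2 against 4.71 to 8.47) overlapped D. simulans, as did Or22b, Or85c, Or42b, Or59b, Ir75a, Ir8a and Gr64f.

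Among the Osiris genes of that list, a family of membrane proteins named in studies of resistance to octanoic acid, Osi6 differed by -0.13 (SE 0.31), Osi7 by -1.35 (SE 0.67), Osi8 by 0.05 (SE 0.33) and Osi18 by -0.27 (SE 0.48). None of all 24 measured Osiris genes passed by limma, and 1 had an unadjusted p under 0.05. The brightest of them, Osi9 and Osi21, differed by -0.25 (SE 0.31) and 0.68 (SE 0.34). Both species means lay under a log2 signal of 6 for 15 of the 24. The dopamine genes ple (0.09, SE 0.41), Ddc (-0.34, SE 0.25), Pu (-0.41, SE 0.43) and Catsup (-0.66, SE 0.63) did not pass either, nor did any other of the 13 dopamine and pigment genes by limma, of which 2 had an unadjusted p under 0.05. Jheh2, a juvenile hormone epoxide hydrolase, differed by -0.35 (SE 0.3) and GstE7 by 0.19 (SE 0.66).

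Genes of general cell function gave smaller differences. Of 36 ribosomal protein genes 13 were higher and 0 lower (36.1% called, against 12.2% of all features), with a median difference of 0.45. Median centring, however, left 2 calls and a median of 0.23, and signals as deposited 5 calls. Without D. sechellia replicate 1 there were 4 calls and without replicate 2 there were 7. RpL27 had 15.07, 15.04 and 15.02 in D. sechellia, above all D. simulans arrays (14.14 to 14.61), and differed by 0.72 (SE 0.14), which was 0.4 and not past the threshold under median centring (limma adjusted p = 0.125). RpS18 (0.9, SE 0.19), RpS26 (0.87, SE 0.21) and RpL23 (0.68, SE 0.15) likewise lost the call under median centring. Of 16 heat shock and Turandot genes 5 were lower and 2 higher (43.8% called, against 12.2% of all features). Among the lower ones were Hsp68 (-1.65, SE 0.41) and DnaJ-1 (-1.19, SE 0.26), both below all D. simulans arrays. Without replicate 1 of D. sechellia 2 were lower and 1 higher, and Hsp68 did not pass (limma adjusted p = 0.0726). The chaperone Hsc70-4 was higher by 0.85 (SE 0.26) and did not pass without replicate 1 (limma adjusted p = 0.249), while Hsc70-3 differed by -0.15 (SE 0.24).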

How the data were processed

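The authors extracted RNA from whole males, hybridized it to Affymetrix Drosophila 1.0 arrays and made the deposited intensity values, linear signals per probe set, with MAS5. Each array's mean was 500 after trimming 2% at each end. By the methods, MAS5 followed a Loess step, and probes without an exact match in D. yakuba were masked. Masking left fewer probe sets in the study, whereas the table holds all 14010. The signals used here are therefore not its masked set and are not corrected for sequence divergence in that way. The Loess step could not be checked. Mismatches between probes and either species were not tested. Arrays have no sequencing depth, and the number of D. sechellia arrays, 3, limits the precision.

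Signals under 1 were set to 1 (31 values), and log2 values were quantile normalized. 44 controls were left out. Of the probe sets other than controls 12443 carried 1 gene symbol, 327 several and 1196 none, and the brightest of a gene was kept. limma 3.58.1 (R 4.3.3) was fitted to all 16 groups on 47 arrays without D. simulans 37x43 replicate 3, which carries female transcripts. The p-values, with Benjamini-Hochberg adjustment over all features, measure the spread between arrays of the same group. They do not measure the spread between lines of D. sechellia or between crosses of D. simulans. On simulated data with 12367 features, 48 of 100 differences of 1 and 78 of 100 differences of 2 on the log2 scale were recovered for D. sechellia against D. simulans. Alternatives covered scaling, floor, dim features, probe sets, samples, weights, the replicate block and leaving out each array.

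The members and gene lists were chosen with earlier results of these data known. Genes were named by rule: the 15 highest and 15 lowest stricter calls with 1 symbol, up to 4 stricter calls per list (the 2 brightest members where fewer than 2 passed), and each measured gene of the host list. Further called list members are named beside them. Cyclophilin, adult cuticle and centrosome genes whose symbols share a prefix with 3 lists were taken off them.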

Additional observations from a re-analysis of the deposited data

Results flagged for a closer look

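For 8 of the 98 named genes the mean of a single D. simulans cross lay further from the other 9 than Dixon's limit for 10 values allows. Chance flags about 1 in 20 such groups. The outlying cross was the lowest of the 10 in each gene. Cross 85x99 had Or46a at a log2 signal of 7.77 (nearest other cross 8.36) and Gr98d at 6.85 (7.77). Cross 99x105 had Osi21 at 7.36 (8.61), Mst84Db at 13.7 (14.48) and ple, which encodes tyrosine hydroxylase, at 8.26 (8.85). Cross 36x37 had Ir92a at 6.46 (7.39), cross 37x43, with 2 arrays, had Or22a at 4.28 (5.94), and cross 6x11 had GstE7 at 8.37 (9.67). Of these genes Mst84Db was called between the species. Its D. sechellia arrays of 11.89 to 11.98 lay below the outlying cross too, as the stricter call requires.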

How the results depend on the processing

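Against 731 higher and 778 lower features, a fit to the 11 groups of both species alone gave 1252 and 1263, cross means taken as samples 2011 and 1756, and array weights 2049 and 1882. The stricter calls, 195 higher, became 364, 478 and 406 under these settings. With the replicate block 732 features were higher and 779 lower, and same-numbered arrays did not deviate together (correlations -0.0583, 0.0491 and 0.037), so the numbers were not taken as pairs. When single arrays were left out, the higher calls ranged from 275 to 788 and the lower calls from 360 to 811, with the fewest without D. sechellia replicate 1. The stricter calls ranged from 31 to 225 higher and 101 to 251 lower, with the fewest without D. sechellia replicate 2, where the second fit then holds a single D. sechellia array. Without D. sechellia replicate 3 there were 99 stricter higher calls. Summed over the 22 lists, 156 calls became 103 without D. sechellia replicate 1. Of 4109 values of the 98 named genes under 42 settings, 4078 kept direction and side of the threshold, 20 lost and 10 gained the call, and 1 reversed: Vm34Ca, which ranged from -0.23 without D. sechellia replicate 1 to 3.06 without replicate 2. For 84 genes none changed. The lost calls were in Hsc70-4, RpS18, RpS26, RpL27, RpL23, Cp18, Vm34Ca and Cyp309a1. Cyp309a1 lost it without D. sechellia replicate 3 (limma adjusted p = 0.0765). The causes were not tested.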

Other observations

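Some genes outside the lists, chosen after their values were seen, met the stricter call. tobi, an alpha-glucosidase induced by dietary protein through insulin-like and adipokinetic hormone signals, had log2 signals of 9.9, 10.41 and 8.38 in D. sechellia and 11.79, 13.23 and 14.03 as the lowest, median and highest D. simulans arrays (difference -3.55, SE 0.63, limma adjusted p = 0.000127). The gut lipase gene mag, magro, had 5.48, 4.95 and 5.28 against 5.9 to 9.35 (-2.56, SE 0.47), and D. mauritiana was also near the lower end at 5.97. pdgy, an acyl-CoA synthetase gene, differed by -3.25 (SE 0.23), and Spn77Bb, a serpin with a name neighbouring Spn77Bc, by -3.18 (SE 0.37). Arr2, the arrestin that ends the light response in photoreceptors, had 12.24, 12.5 and 12.51 in D. sechellia, below all D. simulans arrays (13.26 to 15.33), a difference of -1.87 (SE 0.23).

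On the higher side, Acat1, an acetyl-CoA acetyltransferase, had 12.72, 12.6 and 11.86 in D. sechellia against 9.85 to 10.83 in D. simulans (2.05, SE 0.2, limma adjusted p = 2.54e-09). ACC, the acetyl-CoA carboxylase that starts fatty acid synthesis, was higher by 1.03 (SE 0.22), FarO, a fatty acyl-CoA reductase, by 2.2 (SE 0.32), and Hacd1 and Hacd2, dehydratases of very long chain fatty acid synthesis, by 1.19 (SE 0.27) and 1.06 (SE 0.24). ry, xanthine dehydrogenase, was higher by 2.23 (SE 0.37) and Peritrophin-15a, of the matrix that lines the gut, by 2.46 (SE 0.36), with all 3 D. sechellia arrays (13.07, 13.23 and 12.91) above a D. simulans maximum of 12.88. Subunits of the vacuolar proton pump and of the proteasome were looked at after their values were seen. Of 29 pump subunits 7 were higher and 2 lower (over all features 5.91% and 6.29%), and 15 of the 29 had a difference above 0. Of 39 proteasome subunits 9 were higher and 1 lower, and 22 had a difference above 0.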
